A study of Macaca fuscata with 12 samples.

Results

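C1QB, CSF1R, CD74 and PTPRC are genes that microglia, the resident immune cells of the brain, use to tag synapses, to survive, to present antigen and to signal. They were followed in the cortex of Japanese macaques (Macaca fuscata) on an Affymetrix rhesus array. Every probe set whose only gene symbol in the array's gene table was 1 of these 4 names was taken, which gave 7 of the 52766 probe sets left after array controls were set aside: 1 for C1QB, 1 for CSF1R, 1 for CD74 and 4 for PTPRC. They stand for 4 of the 14132 genes that the table names. The genes were picked because earlier results on these arrays had shown lower values around the intraparietal sulcus (IPS) than around the lateral sulcus (SII), or a training change in IPS. The values of these contrasts are therefore given for the 4 genes as a description without a test, and the test is kept for training in SII, which the choice had not used.

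The study compared 4 groups of 3 arrays, all from the left hemisphere. The IPS trained arrays held cortex around the intraparietal sulcus of male animals with tool-use training, aged 5 years 7 months (334M), 6 years (343M) and 5 years 1 month (348M). The IPS control arrays held the same cortex of untrained males of 5 years 4 months (347M), 5 years 10 months (354M) and 3 years 9 months (358M). The SII trained arrays held cortex around the lateral sulcus, which contains the secondary somatosensory area, of trained animals 334M, 335F (a female of 3 years 10 months) and 348M. The SII control arrays held that cortex of control animals 340F (a female of 4 years 6 months), 347M and 354M. Of the 8 animals, 4 gave both regions (334M and 348M trained, 347M and 354M control). Nothing in the labels describes the training itself or gives a hybridisation date. Whether hybridisation batches coincided with the regions was not tested.

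Microglia depend on signalling through CSF1R, the receptor for the growth factors CSF1 and IL34, for their survival. They make the C1q subunits encoded by C1QA, C1QB and C1QC, which together start the classical complement pathway and tag synapses for removal. CD74 is the invariant chain that guides MHC class II molecules to the compartments where antigen is loaded, and a receptor for the cytokine MIF. PTPRC encodes CD45, a tyrosine phosphatase on the surface of all nucleated blood cells and, at a lower level, of microglia. Macrophages express all 4 genes too, and lymphocytes express PTPRC and, in B cells, CD74. In tissue RNA, fewer cells of a type and less RNA per cell cannot be told apart.

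A value here is a log2 expression value minus the median of its probe set over the 12 arrays, so that 0 is the middle of the 12 arrays and no level can be compared between genes. A rough signal before centring was read from the spacing of the stored numbers. C1QB and CSF1R had a middle signal (at least 16 in at least 11 arrays). CD74 and 3 of the PTPRC probe sets are called low, since fewer than 11 arrays had the spacing of signals of at least 16. The largest number of arrays that matched this spacing was 10 of 12 for CD74, MmugDNA.23562.1.S1_at and MmuSTS.3737.1.S1_at, and 7 for MmugDNA.28808.1.S1_at. Arrays of lower signal can match it by chance, so these are not counts of arrays that reached 16. The fourth PTPRC probe set, Mmu.5406.1.S1_at, lay in 6 arrays at the floor, the lowest value an array can return, which is only an upper limit. The spread followed the signal: the SD within groups was 0.13 for C1QB and 0.30 for CSF1R, 0.51 for CD74 and 0.56 to 0.91 for the PTPRC probe sets, against a median of 0.57 over all probe sets. A high signal was found for the neuronal genes CUX2, TBR1 and GAD1, the astrocyte genes GFAP and SLC1A3 and the myelin gene MBP. Other neuronal and astrocyte genes, among them SLC17A7, CAMK2A, GAD2 and ALDH1L1, had a middle signal. The macrophage genes MRC1 and F13A1 had a high signal too, while CD14 and STAB1 had a middle and LYVE1 and SIGLEC1 a low one. In the microglial lists described below, CD68, IRF8, SPP1, APOE and GPNMB also had a high signal. The arrays SII control 1, SII trained 2 and IPS trained 3 stood apart in their 18 spiked hybridisation controls (medians of 0.45 to 0.49, against -0.15 to 0.08 in the other 9 arrays), and the first and second of these are from the female animals.

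C1QB, which encodes the B chain of C1q, was lower in IPS than in SII in every array. Its values were -0.16, -0.21 and -0.35 in IPS trained animals and -0.33, -0.61 and -0.36 in IPS controls. In SII trained animals they were 0.43, 0.54 and 0.29, and in SII controls 0.16, 0.40 and 0.37. The highest IPS array thus lay 0.33 below the lowest SII array, and the 6 IPS and 6 SII values did not overlap. The fitted difference between the regions, averaged over training, was -0.70 ± 0.13 log2 units (SE, 6 arrays per region, limma), from means of -0.34 in IPS and 0.37 in SII. It was -0.66 between trained groups and -0.74 between control groups. Leaving out any 1 array gave -0.74 to -0.66. C1QB was the only 1 of the 7 probe sets whose IPS arrays all lay below all SII arrays, which held for 0.345% of all 52766 probe sets. Because C1QB was chosen on this contrast, nothing is read from that share.

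CSF1R also had lower values in IPS, with some overlap. It lay at -0.38, -0.16 and -0.37 in IPS trained animals and at -0.23, -0.12 and 0.12 in IPS controls. In SII trained animals it lay at -0.21, 0.76 and 0.41, and in SII controls at 0.71, 0.49 and 0.22. Only SII trained 1, from animal 334M, reached down into the IPS range, and the highest values, 0.76 and 0.71, were those of the female animals. The fitted difference was -0.59 ± 0.19 (SE, limma), from means of -0.19 in IPS and 0.40 in SII. Among male animals it was -0.42, and with the 3 arrays of raised hybridisation controls left out it was -0.40, the value nearest 0 among the alternatives run.

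**Figure D1:**
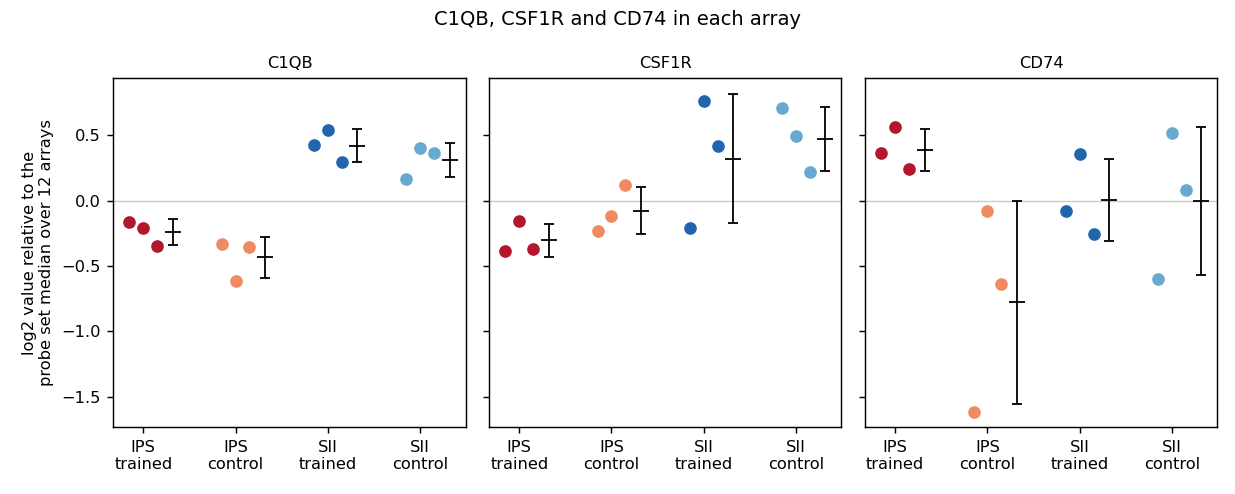
C1QB, CSF1R and CD74 in the 12 arrays, in log2 units around each probe set's own median (vertical axis) by group (horizontal axis). Points are arrays, and the black bars are the group mean ± SD (n = 3). C1QB lies below 0 in all 6 IPS arrays and above 0 in all 6 SII arrays, and CD74 is lowest in IPS control 1 at -1.61.

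Within the 4 animals that gave both regions, C1QB and CSF1R were lower in IPS in each animal. For C1QB the IPS minus SII difference was -0.59 in 334M and -0.64 in 348M, the trained animals, and -0.73 in 347M and -0.98 in 354M, the controls. It averaged -0.74 ± 0.17 (SD, n = 4). For CSF1R it was -0.17 in 334M and -0.79 in 348M, against -0.73 in 347M and -0.34 in 354M, and averaged -0.51 ± 0.30. These were the only 2 of the 7 probe sets lower in IPS in 4 of 4 animals, a pattern found in 7.06% of all probe sets. Both genes were chosen on the difference between the regions in these arrays, so nothing is read from that share. CD74 had opposite signs in the trained and the control animals. It was higher in IPS by 0.44 and 0.49 in the trained animals 334M and 348M, and differed by -2.13 and -0.16 in the control animals 347M and 354M. None of the PTPRC probe sets had 1 sign in all 4 animals.

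**Figure D2:**
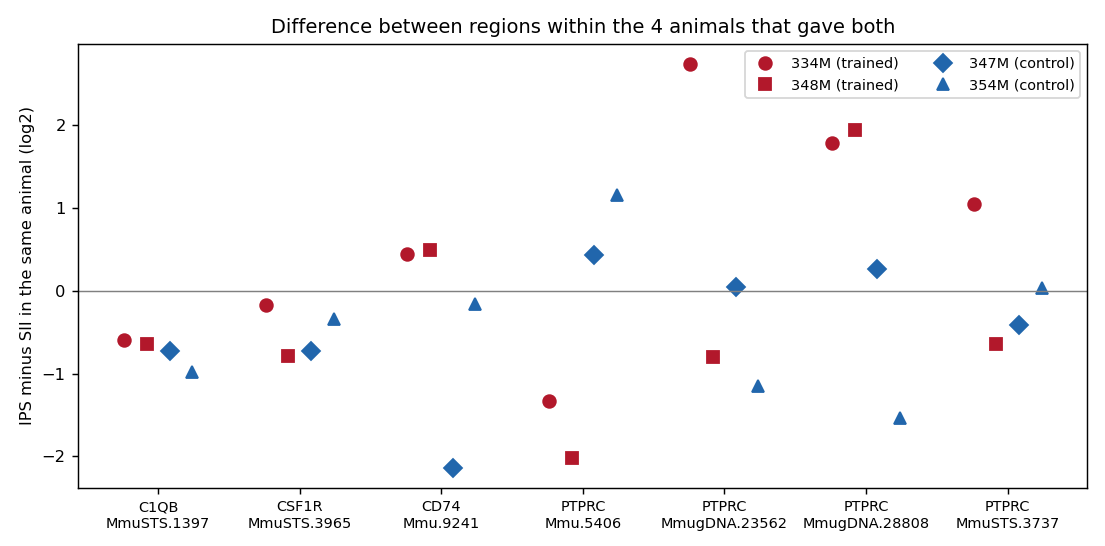
IPS minus SII difference in log2 units (vertical axis) of the 7 probe sets (horizontal axis) within each of the 4 animals that gave both regions. Red symbols are the trained animals and blue symbols the controls. All 4 animals lie below 0 for C1QB and CSF1R, and the PTPRC probe sets spread to both sides of 0.

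CD74 had higher values in IPS trained animals than in IPS controls. It lay at 0.36, 0.56 and 0.24 in IPS trained animals and at -1.61, -0.08 and -0.64 in IPS controls. The trained values lay close together and all above the controls, which spread over more than 1 log2 unit. The fitted change was 1.18 ± 0.41 (SE, n = 3 per group, limma), from means of 0.39 ± 0.16 and -0.78 ± 0.78 (SD). Without IPS control 1 it was 0.75 and without IPS control 2 it was 1.53, the range over the arrays left out. IPS control 1 thus moved the change by more than 1.5 times. In SII the CD74 values were -0.08, 0.35 and -0.25 in trained animals and -0.60, 0.52 and 0.08 in controls. The SII groups overlapped, with means of 0.01 and -0.00 that lay between those of the IPS groups.

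The PTPRC probe sets did not move together. In IPS, MmugDNA.28808.1.S1_at lay at 0.17, 0.20 and 0.88 in trained animals and at 0.13, -1.31 and -3.10 in controls. The trained arrays were all above the controls, with a gap of only 0.03 between the nearest arrays, and the fitted change was 1.84 ± 0.68 (SE, limma). Without IPS control 3 it was 1.00. MmugDNA.23562.1.S1_at lay at 1.93, 1.05 and 0.16 in IPS trained animals and at 0.51, -1.31 and -0.46 in IPS controls, with overlap and a change of 1.47 ± 0.68. MmuSTS.3737.1.S1_at lay at 0.63, 0.24 and -0.60 in IPS trained animals and at 0.04, 0.02 and -0.13 in IPS controls, with a change of 0.11 ± 0.44. Mmu.5406.1.S1_at went the other way: all 3 IPS trained arrays lay at the floor, as did IPS control 1, while IPS control 2 stood 2.34 and IPS control 3 stood 0.84 log2 units above the floor of its own array. Over the 12 arrays Pearson's r with Mmu.5406.1.S1_at was -0.44 for MmugDNA.23562.1.S1_at, -0.39 for MmugDNA.28808.1.S1_at and -0.56 for MmuSTS.3737.1.S1_at. Among the 3 probe sets with no floor found it was 0.01 to 0.58. These are descriptions over arrays that share animals. Which part of the PTPRC transcript each probe set reads was not analysed here.

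**Figure D3:**
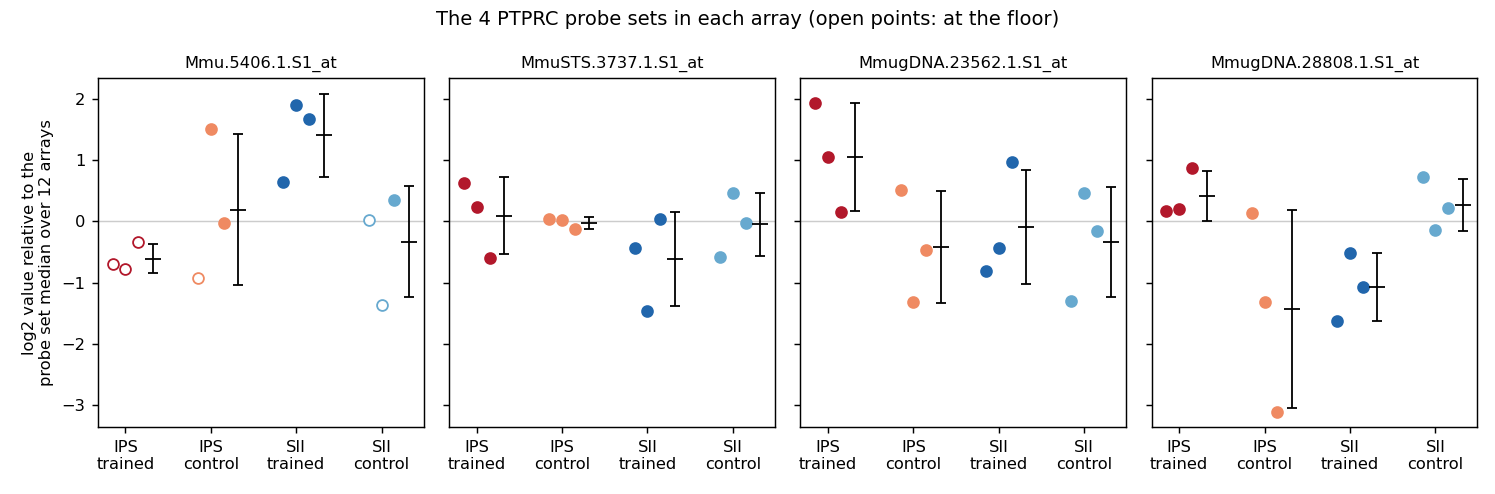
The 4 PTPRC probe sets in the 12 arrays, in log2 units around each probe set's own median (vertical axis) by group (horizontal axis). Open points are arrays at the floor, where the value is an upper limit, and black bars are the group mean ± SD (n = 3). The IPS trained arrays are at the floor in Mmu.5406.1.S1_at and above the IPS controls in MmugDNA.28808.1.S1_at.

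Of the 7 probe sets, 2 had IPS trained arrays all above IPS controls (CD74 and MmugDNA.28808.1.S1_at), which held for 5.77% of all probe sets, and none had them all below (3.72%). Both shares belong to a contrast on which the genes were chosen, so nothing is read from them. C1QB and CSF1R had small differences with overlapping groups in IPS, at 0.20 ± 0.19 and -0.22 ± 0.27 (SE, limma). No probe set on the array passed a false discovery rate of 5% for training in IPS (0%), and 1726 of 52766 had an unadjusted p under 0.05 (3.27%).

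In SII, training could be tested for the 4 genes, and none passed. For C1QB the trained minus control change was 0.11 ± 0.19 log2 units (SE, n = 3 per group), for CSF1R -0.15 ± 0.27 and for CD74 0.01 ± 0.41, each with overlapping groups. Adjusted p over all probe sets in limma was 1.00 in each case. The direction of C1QB, CSF1R and CD74 turned under some of the alternatives listed in the closing section.

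The 4 PTPRC probe sets disagreed in SII as well. Mmu.5406.1.S1_at had trained values of 0.64, 1.90 and 1.67, against control values of 0.02, -1.36 and 0.35, of which the first and second were at the floor. All trained arrays lay above the controls. Its change of 1.73 ± 0.62 had an unadjusted p of 0.0187 and did not pass over all probe sets in limma (adjusted p 1.00), and its size rests on where the floor lay in the control arrays. MmugDNA.28808.1.S1_at lay the other way, at -1.62, -0.51 and -1.06 in trained animals and 0.72, -0.13 and 0.22 in controls. All its trained arrays lay below the controls, and its change of -1.31 ± 0.68 did not pass. MmugDNA.23562.1.S1_at had a change of 0.24 ± 0.68 and MmuSTS.3737.1.S1_at one of -0.56 ± 0.44, with overlapping groups.

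Of the 7 probe sets, 0 passed in SII over all probe sets in limma, as for the whole array (0%), and 1 had an unadjusted p under 0.05, against 3.87% of all probe sets. SII groups did not overlap in 2 of the 7, which held for 7.08% of all probe sets (4.7% with trained above, 2.38% with trained below). PTPRC is also a gene of T and NK cells. The mean of the 9 measured genes among 16 markers of T, NK and B cells ran from 0.04 to 0.20 in SII trained arrays and from -0.64 to -0.03 in SII controls. Of these genes 5 of 9 were higher in trained animals, against 54.1% of all genes, with a median change of 0.06. Of these genes NKG7, a granule protein of killer cells, had by far the largest change, 2.70 ± 0.33 (SE, limma; adjusted p 0.0828). In IPS the list mean ran from -0.32 to 0.00 in trained arrays and from -0.42 to -0.12 in controls, with 8 of 9 higher, against 53.6% of all genes. The 3' minus 5' difference of GAPDH, a reading of RNA quality, ran from -0.24 to 0.72 in SII trained arrays and from -0.57 to -0.22 in SII controls. In IPS it ran from -0.28 to 1.01 in trained arrays and from -0.03 to 0.33 in controls. The same difference for actin overlapped between trained and control arrays in both regions. Between regions, the GAPDH ranges of the control groups did not overlap. Actin in 347M, 354M and 348M was -1.87, -1.71 and -1.54 in SII, against 0.02, 0.23 and 1.37 in IPS. In 334M it went the other way, at 1.17 in SII and -0.79 in IPS. The part of lymphocytes or of RNA quality in the values of the 4 genes, for training or between regions, was not tested.

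**Figure D4:**
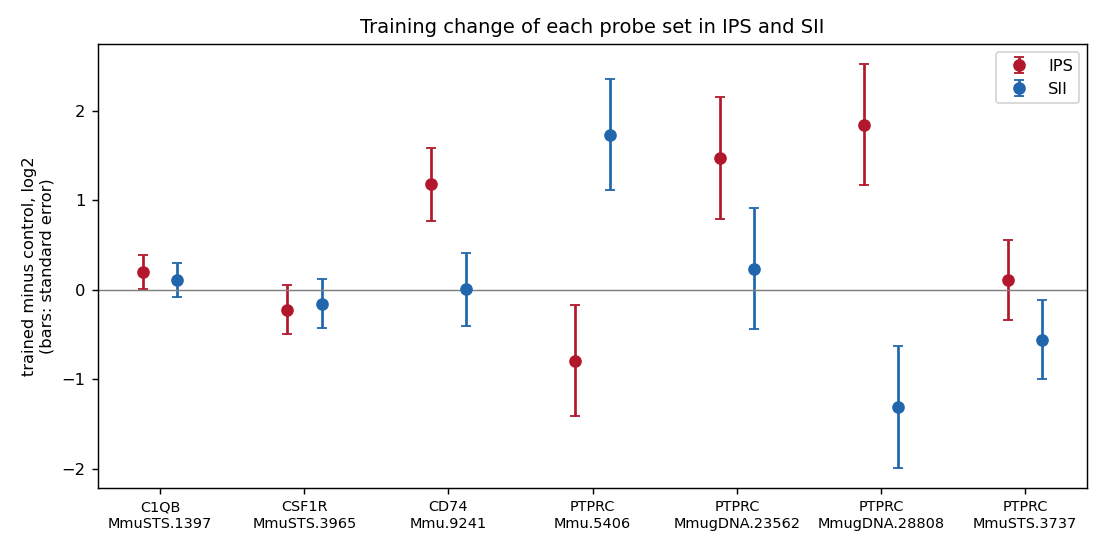
Trained minus control change in log2 units ± SE (vertical axis) of the 7 probe sets (horizontal axis), in IPS (red) and SII (blue), from the limma fit with n = 3 per group. CD74 and 2 of the PTPRC probe sets have changes above 1 in IPS, and Mmu.5406.1.S1_at and MmugDNA.28808.1.S1_at have changes of opposite sign in the regions.

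The other genes of the microglial programme were read from lists. Each gene's value was the mean over its probe sets with no floor found, for 13040 genes. Of 21 genes listed for homeostatic microglia, some of which macrophages express too, 15 were measured. All 15 had a fitted IPS minus SII difference below 0, with a median of -0.39. Over all genes 51.3% lay below 0, with a median of -0.01. Without C1QB and CSF1R, which were chosen on this contrast, it was 13 of 13, with a median of -0.29. None of these 13 passed 5% over all genes in limma, where 1 gene of 13040 passed (0.00767%), and 2 (GPR34 and AIF1) had an unadjusted p under 0.05, against 6.47% of all genes that had one with a lower value in IPS. The largest difference was that of GPR34, a lysophosphatidylserine receptor, at -1.28 ± 0.37 (SE, limma), followed by C1QB and CSF1R. AIF1, which encodes the cytoskeletal protein IBA1, had -0.45 ± 0.16, TMEM119 -0.47 ± 0.64, SELPLG -0.45 ± 0.28, the fractalkine receptor CX3CR1 -0.41 ± 0.39 and the ADP receptor P2RY12 -0.29 ± 0.22. CD68, a lysosomal protein, had -0.15 ± 0.12, and TREM2, a lipid receptor, -0.04 ± 0.21.

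The mean of the 13 homeostatic genes other than C1QB and CSF1R lay at 0.17, -0.12 and -0.33 in IPS trained arrays and at -0.44, -0.30 and -0.34 in IPS controls. In SII it lay at 0.01, 0.28 and 0.24 in trained arrays and at 0.05, 0.22 and -0.05 in controls. The IPS controls were below every SII array, and the IPS trained arrays were spread, with animal 334M inside the SII range. For training in SII 6 of the 13 genes were higher in trained animals (median -0.03), against 54.1% of all genes. The smallest p there was that of CX3CR1, with a change of 1.12 ± 0.57 (SE, limma). For training in IPS 10 of the 13 were higher (median 0.15), against 53.6% of all genes. None passed over all genes for training in either region. Within the 4 animals that gave both regions, 2 of the 13 genes (AIF1 and CD68) were lower in IPS in each animal, against 8.31% of all genes, and SELPLG and LY86 were lower in only 1 of 4. The count of 15 was 13 among male animals, and 13 again with the arrays of raised controls left out, with TREM2 and LY86 above 0 in both cases. It was 14 under quantile normalization and in the 4 animals with both regions.

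**Figure D5:**
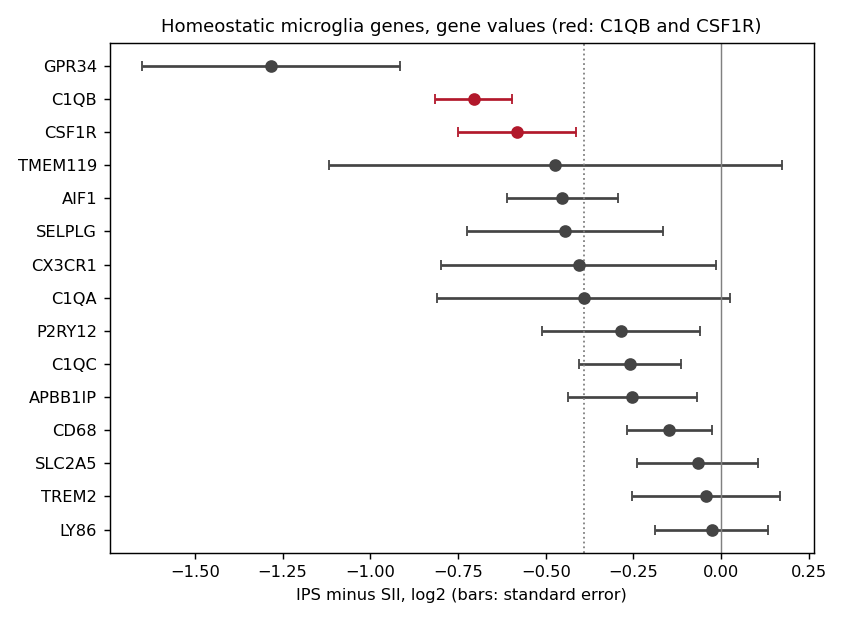
IPS minus SII difference in log2 units ± SE (horizontal axis) of the 15 measured homeostatic microglia genes (vertical axis), from the limma fit on gene values. C1QB and CSF1R are red, the solid line is 0 and the dotted line is the list's median of -0.39. All 15 points lie left of 0, and most bars are wide against the distance to 0.

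The partner chains of C1QB had differences of the same sign. C1QA differed between IPS and SII by -0.39 ± 0.42 and C1QC by -0.26 ± 0.14 (SE, limma), and neither passed. Over the 22 listed genes of C1q and complement, 10 were measured, 6 with a lower and 4 with a higher value in IPS (median -0.04), and none of the other 9 genes passed. The complement receptor genes ITGAM and ITGB2, which encode the chains of CR3, had differences of -0.16 ± 0.16 and -0.07 ± 0.22. In SII 6 of the 10 had higher values in trained animals (median 0.09), none passed and none had an unadjusted p under 0.05. The smallest p was that of CD46, a complement regulator, with a change of 0.57 ± 0.33.

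In the list on CSF1R signalling, 14 of 17 genes were measured. The IPS minus SII difference was below 0 in 10 of 14 (median -0.09), and none of the other 13 genes passed in limma. CBL, a ubiquitin ligase that ends receptor signalling, differed by -0.61 ± 0.14, with all 6 IPS arrays below all 6 SII arrays, as in 0.391% of all genes. TYROBP, the adaptor of TREM2, differed by -0.31 ± 0.16, the transcription factor gene IRF8 by 0.19 ± 0.14 and the ligand IL34 by -0.13 ± 0.19. The other ligand, CSF1, had training changes of -1.46 ± 0.60 in IPS and 1.12 ± 0.60 in SII, and neither passed over all genes. Its value came from 1 of its 2 probe sets, with a low signal. Its groups overlapped in both regions, with an SD of 1.32 in IPS controls and 0.91 in SII controls. In SII 12 of 14 genes were higher in trained animals (median 0.24), 0 of them with an unadjusted p under 0.05 (3.25% of all genes), and 54.1% of all genes were higher.

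Among genes of MHC class II and CD74, 17 of 31 were measured. For training in IPS 8 of 17 were higher in trained animals (median -0.0038), against 53.6% of all genes. Besides CD74, which was chosen on this contrast, 0 of 16 had an unadjusted p under 0.05, against 2.69% of all genes. The class II chain gene MAMU-DRA had a change of 0.32 ± 0.65 in IPS and MAMU-DQA1 one of 0.19 ± 0.52. MAMU-DMA, part of the peptide exchanger, had -0.49 ± 0.42, and the class II transactivator gene CIITA -0.75 ± 0.70. In SII 12 of 17 were lower in trained animals (median -0.17), against 45.9% of all genes, with the smallest p for the chemokine receptor CXCR4 at -1.004 ± 0.51. Between regions 11 of 17 were lower in IPS (median -0.03), with the smallest p for LGMN, which encodes a lysosomal protease, at -0.65 ± 0.27. None of these passed in limma.

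In the list of CD45, leukocyte kinases and other leukocyte genes, 14 of 19 were measured. LCP1, an actin-bundling protein of leukocytes, differed between IPS and SII by -0.67 ± 0.18. All its IPS arrays lay below all SII arrays, as in 0.391% of all genes. CD53, a leukocyte tetraspanin, differed by 0.81 ± 0.18, with all IPS arrays above all SII arrays, as in 0.713% of all genes, so that genes of this list separated the regions in both directions. In all 9 of 14 were lower in IPS (median -0.15). For training in SII 7 of 14 were higher (median -0.0025), with the smallest p for CD53 at 0.56 ± 0.26. None of the 13 genes other than PTPRC passed in limma.

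The genes whose 12 values ran most like each member were picked by Pearson's r over the arrays, leaving out locus names. For C1QB they were KIR2DL4 (r = 0.92), RITA1 (0.89), ADISSP (0.87), CBL (0.86) and SYT17 (0.86), where 5% of the 12057 genes exceeded 0.59. For CSF1R they were NUCB1 (0.92), CLN3 (0.92), RPTOR (0.92), IL12RB2 (0.91) and AP1B1 (0.91), where 5% exceeded 0.69. For CD74 they were PHC3 (0.86), NECTIN2 (0.86), PDRG1 (0.85), CXCR6 (0.85) and AFP (0.84), where 5% exceeded 0.46. For PTPRC, over its 3 probe sets with no floor found, they were RABEP1 (0.89), CHAF1B (0.83), COX11 (0.81), ZNF17 (0.80) and FGF17 (0.80). Among the members themselves r was 0.65 for C1QB with CSF1R, 0.29 for C1QB with CD74 and -0.06 for C1QB with PTPRC. It was -0.30 for CSF1R with PTPRC. With the homeostatic microglia genes r varied widely. For CSF1R it ran from -0.14 (SLC2A5) to 0.83 (GPR34), with 0.01 for P2RY12. For CD74 it ran from -0.48 (SLC2A5) to 0.78 (CX3CR1), with 0.04 for TREM2. All points share the 4 groups, and some share animals. Group means were not removed before r was taken. The genes named for C1QB differed between IPS and SII by -2.63 to -0.51, and those named for CSF1R by -0.65 to -0.31. Their r thus includes the contrast on which C1QB and CSF1R were chosen, and nothing further is read from it.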

How the data were processed

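Biotin-labelled cRNA from 12 cortex samples was hybridised to the rhesus array, per the labels' protocols. The deposited log2 values had been centred by the authors so that each probe set's median is 0 (largest deviation 2.5e-07). The log base was inferred from the range. MAS5 is named per the submitters' processing notes; how arrays were scaled was not given in the sources used here. Medians of the 12 arrays spanned 0.16, and the number of arrays limits the precision. Floor values were found as differences shared by at least 1064 probe sets between a pair of arrays (next most common: 3), and a floor in 1 array alone cannot be seen.

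All 52766 probe sets, after 99 controls were left out, were fitted with limma (version 3.58.1, with statmod 1.5.0, under R 4.3.3). The model held a mean for each of the 4 groups, animal as a random block (correlation 0.0474 over probe sets, kept in the alternatives, and 0.109 over genes), empirical Bayes and Benjamini-Hochberg adjustment. All tests are 2-sided. With 3 arrays against 3 an exact permutation p cannot go below 0.1. The fit was tested on simulated data. Gene symbols came from the array's gene table (361 probe sets had several symbols, 27449 none). For each list the genes named are those past 5% or, where none passed, the one with the smallest p in SII training and between regions. For the C1q, CSF1R, MHC class II and CD45 lists other measured genes may also be given as values. Some further homeostatic genes, and SPP1, were named after their values were seen. The members and lists were chosen with earlier results of these data known. Same-numbered replicates are not the same animal across training groups, so the numbers do not pair arrays.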

Additional observations from a re-analysis of the deposited data

Results flagged for a closer look

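The PTPRC probe set MmugDNA.28808.1.S1_at was picked out because its training changes had opposite signs in the regions with no overlap in either: every IPS trained array lay above the IPS controls, and every SII trained array lay below the SII controls. The change in IPS exceeded that in SII by 3.15 ± 0.94 log2 units (SE, limma), and by 2.34 to 3.95 over 23 alternatives. The difference was not tested, because the genes were chosen partly on training in IPS. Of the other PTPRC probe sets, MmugDNA.23562.1.S1_at and MmuSTS.3737.1.S1_at had differences of the same sign at 1.24 ± 0.95 and 0.67 ± 0.62, and Mmu.5406.1.S1_at, with 6 arrays at the floor, had the opposite sign at -2.53 ± 0.86.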

How the results depend on the processing

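The main counts of probe sets past 5% in limma were 0 for each comparison. For training in SII the count was 1 under quantile normalization, 2 with array weights, 2 with sex as a covariate and 0 to 5 with 1 array left out (5 without SII trained 3). For IPS against SII it was 5 under quantile normalization, 2 with sex as a covariate and 0 to 3 with 1 array left out. In the separate fit on gene values 1 gene passed for IPS against SII, and 3 genes with values averaged over all probe sets of a gene. For training in IPS, and for the difference of the training changes, it was 0 to 2 with 1 array left out (2 without IPS trained 1). None of the 7 probe sets passed for training in SII under any alternative.

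In SII the training change of CD74 turned to -0.15 under quantile normalization, -0.0421 with median centring, -0.16 with array weights, -0.47 with males only, -0.47 without the 3 arrays with raised controls and -0.47 in the 4 animals with both regions. C1QB turned to -0.0249, -0.0261 and -0.0238 with males only, without the 3 arrays and in the 4 animals, and MmugDNA.23562.1.S1_at to -0.0776, -0.0886 and -0.0786. With 1 array left out, CD74 ran from -0.29 to 0.29, MmugDNA.23562.1.S1_at from -0.31 to 0.62, CSF1R from -0.37 to 0.11 and C1QB from 0.04 to 0.17. The PTPRC gene value was -0.53 without and 0.032 with the floor probe set. None of these changes was past the threshold, and the cause was not tested. Between regions, C1QB ran from -0.74 to -0.66 and CSF1R from -0.72 to -0.40 over 23 alternatives each. CD74 in IPS ran from 0.75 to 1.53 over 24 alternatives.

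With the replicate number as a block, CD74 in SII was -0.0004, and 0 probe sets passed in any comparison. The deviations of same-numbered arrays correlated at -0.20 to 0.06 between the training groups. The count of 15 homeostatic genes lower in IPS was 13 to 15 under the alternatives, which were chosen after seeing the data. The low signals of CD74 and PTPRC limit their precision, and with 1 array left out of 3 the rest of its group is assumed to vary like the other groups.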

Other observations

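Of 18 genes of activated microglia, 12 were measured, 8 with lower and 4 with higher values in IPS than in SII (median -0.12): the lipid carrier gene APOE had -0.77 ± 0.25 and SPP1, osteopontin, 0.46 ± 0.19 (SE, limma on gene values). In SII 7 of 12 were lower in trained animals (median -0.10), with the smallest p for the receptor kinase AXL at 0.26 ± 0.17. Of 14 genes of perivascular macrophages and monocytes, 10 were measured, 5 lower and 5 higher in IPS (median -0.02), with LYVE1, a hyaluronan receptor, at -1.03 ± 0.35. SIGLEC1, a sialic acid receptor of macrophages read by 1 probe set of low signal, had a training change in SII of 1.64 ± 0.34 (SE, limma; adjusted p 0.958). All its trained arrays lay above the controls, as in 3.92% of all genes. In this list 7 of 10 genes were higher in trained animals in SII (median 0.12), against 54.1% of all genes. Of the 9 measured genes of T, NK and B cells, the granzyme gene GZMA differed by -1.01 ± 0.26 between IPS and SII (5 of 9 lower, median -0.17). NKG7, read by 1 probe set of low signal, had a training change in SII of 2.70 ± 0.33 (adjusted p 0.0828 in limma), with a list median of 0.06. None of these passed over all genes.

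The lists of other cells gave no call either. Between IPS and SII the medians were -0.08 for 3 red blood cell genes (HBB -0.15 ± 0.38), 0.05 for 7 of endothelial cells and pericytes (FLT1 -1.32 ± 0.38), 0.01 for 7 of meninges and fibroblasts (DCN -0.21 ± 0.28) and -0.10 for 5 of astrocytes (SLC1A2 -0.42 ± 0.21). They were -0.23 for 2 of oligodendrocytes (MBP -0.50 ± 0.33), -0.09 for 7 of excitatory neurons (SLC17A7 -0.88 ± 0.27) and 0.06 for 5 of GABA neurons (LHX6 -0.31 ± 0.28). For training in SII the medians were 0.25 for red blood cells (HBA 0.89 ± 1.06), -0.02 for endothelial cells (FLT1 -0.92 ± 0.56), -0.47 for meninges (LUM -1.28 ± 0.57), -0.01 for astrocytes (ALDH1L1 -0.32 ± 0.21), -0.09 for oligodendrocytes (MBP -0.27 ± 0.49), -0.08 for excitatory neurons (CAMK2A -0.39 ± 0.38) and 0.00 for GABA neurons (PVALB -0.86 ± 0.46).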
